A study of Mus musculus with 2 samples.

Results

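MiR-143 and miR-145a are the mature products of a pair of miRNA hairpins that lie next to each other in the mouse genome, and they were examined by small RNA sequencing of wild type (WT) C57BL/6 embryonic hearts at E9.5. All precursor entries named miR-143, miR-145a or miR-145b, whatever the arm, were taken from the miRDeep2 tables of the 2 replicates. This gave 2 entries of the 620 listed in at least 1 replicate, miR-143 and miR-145a, both listed in both replicates. MiR-145b was listed in neither replicate. The small RNA libraries were made from total RNA of whole, untreated hearts at embryonic day 9.5. They form a single group (n = 2), which leaves no comparison between conditions. How many hearts went into a sample, and whether the replicates came from separate litters, is not given in the sources used here, so the spread between them may be technical. Replicate 1 listed 568 entries with 4942257 mature reads and replicate 2 listed 523 entries with 4806179 mature reads.

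A miRNA hairpin is cut by Drosha with DGCR8 and then by Dicer into a duplex. The arm that is kept is called the mature miRNA, the opposite arm is called the star, and the piece between them is the loop. Nucleotides 2 to 8 of a mature miRNA, its seed, pair with sites in the 3′ UTRs of target mRNAs. MiR-143 and miR-145 are known as the miRNAs of smooth muscle, where SRF and myocardin drive their shared transcript and where they favour the contractile state through targets such as Klf4 for miR-145 and Elk1 for miR-143. In the embryo they are known from cardiac progenitors and the early heart before smooth muscle takes over as their main site. The tables hold miRNAs only, with no mRNA of smooth muscle, so the cell type that made these reads could not be read from them. Fewer cells of a type and less RNA per cell cannot be told apart in whole hearts.

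MiR-143-3p and miR-145a-5p each had a seed found in no other of the 1240 arms of the listed precursors, and so did miR-145a-3p. The seed of miR-143-5p was shared by 1 arm, miR-1930-3p, with 11 reads in replicate 1 and 12 in replicate 2 from a precursor on chromosome 10 (77103981 to 77104040 of mm9, plus strand). Below are the consensus sequences in the deposited tables, with the seed in capitals, of 4 of the miRNAs against which the levels of miR-143-3p and miR-145a-5p are set. The seeds of these 4 differ from each other and from those of both members.
miR-148a-3p: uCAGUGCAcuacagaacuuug
miR-126a-3p: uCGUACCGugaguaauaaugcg
miR-351-5p: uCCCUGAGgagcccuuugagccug
miR-30c-5p: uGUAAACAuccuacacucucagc

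On chromosome 18 of mm9 both precursors lie on the minus strand, miR-145a from 61807484 to 61807542 and miR-143 from 61808855 to 61808907. They are separated by 1312 bp, and since the strand is minus, miR-143 comes first in the direction of transcription. GENCODE vM1 gives each hairpin a miRNA gene of its own, Mir145 from 61807470 to 61807557 and Mir143 from 61808850 to 61808912, and places neither in an exon or intron of another gene. The next gene upstream on the same strand is the lincRNA Gm16908, from 61810628 to 61825191, which ends 1715 bp before Mir143. RefSeq names this gene Carmn and gives Mir143hg, the miR-143 host gene, as a synonym. The nearest other listed precursor on that strand, miR-378a, was 249.9 kb away.

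In replicate 1, miR-143-3p had 361567 mature reads, 7.32% of all mature reads (95% Wilson confidence interval 7.29% to 7.34%). In replicate 2 it had 297669 reads, 6.19% (6.17% to 6.22%). Its mean share was 6.75% ± 0.79 (SD, n = 2), and it was higher in replicate 1. MiR-145a-5p had 30909 mature reads in replicate 1, 0.625% (0.618% to 0.632%), and 30005 in replicate 2, 0.624% (0.617% to 0.631%). Its mean share was 0.6249% ± 0.0008 (SD, n = 2), so the replicates were nearly equal. Together they held 7.38% ± 0.79 of mature reads (SD, n = 2). Among runs of precursors on 1 strand with gaps of at most 10 kb and more than 1 mature sequence, this sum ranked 4 by its mean, after both clusters of miR-1a and miR-133a, which share their mature sequences, and the 36 entries from miR-379 onward on chromosome 12. In replicate 2 it ranked 5, with 6.82% against 7.65% for the run that starts at miR-770 on chromosome 12, which in replicate 1 lay below it with 6.69% against 7.94%. These intervals cover read-counting error only, since reads amplified by PCR are not independent molecules. The shares also rest on a total in which reads that match several precursors can be counted at each. With each mature sequence counted once, the mean share was 9.25% for miR-143-3p, 0.856% for miR-145a-5p and 10.1% for their sum.

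The star arms were far lower. MiR-143-5p had 3655 reads in replicate 1 and 3669 in replicate 2, and miR-145a-3p had 6195 and 6583 reads. Set against all mature reads, miR-143-5p stood at 0.0751% ± 0.0017 and miR-145a-3p at 0.131% ± 0.008 (SD, n = 2 for each). The order of the hairpins was thus opposite on the star arms, where miR-145a had more reads than miR-143 in both replicates. The ratio of miR-143 to miR-145a was 11.7 in replicate 1 and 9.92 in replicate 2 on the mature arms, and 0.590 and 0.557 on the star arms.

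**Figure D1:**
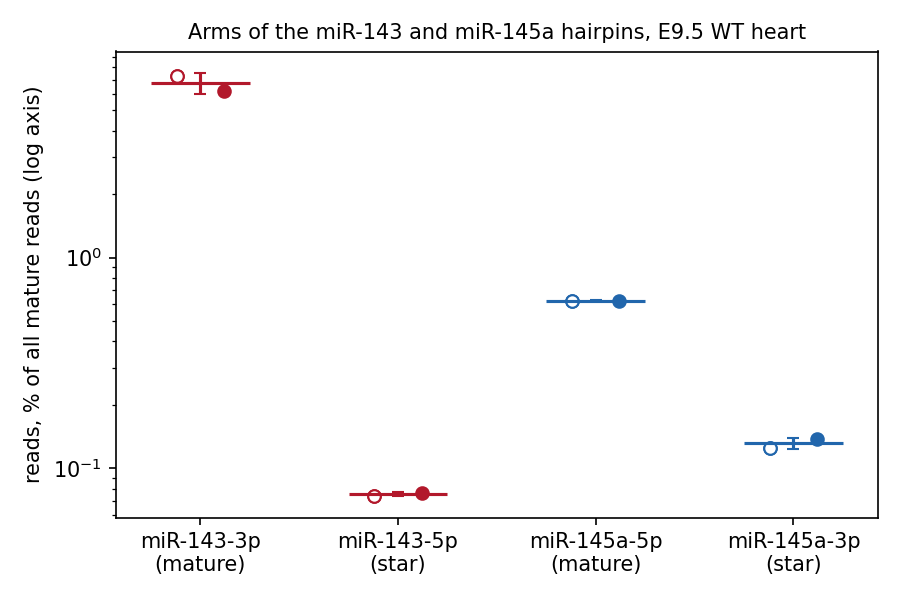
Reads of the 4 arms of the miR-143 and miR-145a hairpins as percent of all mature reads, on a log axis. Open circles are replicate 1, filled circles replicate 2, and the horizontal line with its bar is the mean ± SD (n = 2). MiR-143-3p lies near 7% and is the arm with the widest SD, 0.79 percentage points, while miR-145a-5p lies at 0.625% in replicate 1 and 0.624% in replicate 2.

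Among the 471 entries listed in both replicates, miR-143-3p ranked 3 by mean share and also in each replicate. Above it stood both miR-1a-3p entries, the muscle miRNA, and miR-1a-2-3p with 10.2% ± 0.36 (SD, n = 2) did not overlap it in its range over the replicates. Below it stood miR-148a-3p with 324560 and 254949 reads, 6.57% in replicate 1 and 5.30% in replicate 2. The ranges of miR-143-3p and miR-148a-3p overlapped, with both shares lower in replicate 2. Within each replicate miR-143-3p was higher. The log2 ratio of miR-148a-3p over miR-143-3p was -0.16 in replicate 1 and -0.22 in replicate 2, a difference that was not tested. MiR-145a-5p ranked 30 by mean share and 29 in each replicate. Its neighbours were miR-351-5p, whose range of 0.525% to 0.749% enclosed it, and miR-30c-5p, with 0.600% and 0.623%, which lay just below both of its values.

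Likeness in level was measured by the larger of the 2 absolute log2 differences in share, 1 in each replicate. By this measure miR-143-3p was nearest to miR-148a-3p (0.22), followed by miR-127-3p (0.63) and miR-1a-2-3p (0.76). MiR-145a-5p was nearest to miR-30c-5p (0.060), miR-20a-5p (0.16) and miR-30a-5p (0.17). MiR-145a-5p thus had entries close to it on both sides, whereas miR-143-3p lay in the thinly filled top of the order.

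**Figure D2:**
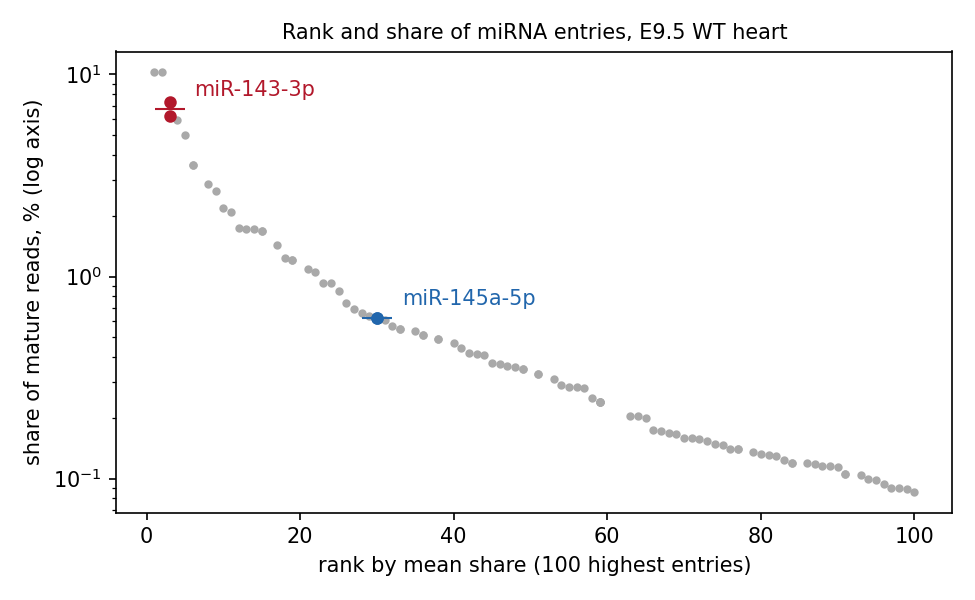
Share of mature reads (log axis) against rank for the 100 highest entries listed in both replicates, with grey points as means of the 2 replicates. For the members both replicates are drawn as points and the mean as a dash. MiR-143-3p stands at rank 3 with 7.32% and 6.19%, and miR-145a-5p at rank 30 on the denser part of the curve.

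Lists of miRNAs known from cell types gave a scale for these levels. The sums count each mature sequence once over a list and are shares of all mature reads. All names of every list were listed in at least 1 replicate, and a name not listed in a replicate (miR-208a, miR-141 and miR-124 in replicate 2, miR-144 in replicate 1) adds nothing to the sum there. The heart muscle list (miR-1a, miR-133a, miR-208a, miR-208b and miR-499) held 11.6% ± 0.30 (SD, n = 2), which was 1.44 times the share of the summed miR-143-3p and miR-145a-5p in replicate 1 and 1.74 times in replicate 2. The endothelial miR-126a-3p held 2.884% ± 0.016 (SD, n = 2), and miR-143-3p and miR-145a-5p together were 2.74 and 2.37 times as high. Other miRNAs known to act on smooth muscle growth, miR-21a, miR-221, miR-222 and miR-26a, held 5.27% ± 0.14 (SD, n = 2). Nearly all of that was miR-21a and miR-26a, since miR-221 had 134 and 110 reads and miR-222 had 61 and 62. The mesenchymal miR-199a, miR-199b and miR-214 held 0.145% ± 0.008 (SD, n = 2), and miR-143-3p and miR-145a-5p together were 52.7 and 48.8 times as high.

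Markers of tissues beside the heart muscle and its vessels were also low. In replicates 1 and 2, the erythroid list (miR-451a, miR-144 and miR-486a) held 0.113% and 0.140%. Nearly all of that was miR-486a (0.110% and 0.136%), since miR-451a had 128 and 127 reads and miR-144 had 73 in replicate 2. In the same order, the liver miR-122 held 0.0421% and 0.0554%. The epithelial list of 6 names (miR-200a, miR-200b, miR-200c, miR-141, miR-429 and miR-205) held 0.0353% and 0.0373%. MiR-206 of skeletal muscle had 192 and 187 reads, and the neural miR-9 and miR-124 together had 239 and 178. All these lists lay below miR-145a-5p alone in both replicates. Whether cells other than those of the heart contributed miR-143 or miR-145a reads was not tested.

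The replicates were compared by an exact binomial test of the mature reads, given the totals of mature reads, with Benjamini-Hochberg adjustment. Of 431 entries tested, 41.1% differed at an adjusted p under 0.05, and 13.5% did so with a higher share in replicate 1. MiR-143-3p was among the latter, with a log2 ratio of replicate 2 over replicate 1 of -0.24 (95% exact interval -0.25 to -0.23) and a p too small to be computed. MiR-145a-5p had a log2 ratio of -0.0025 (-0.026 to 0.020; exact binomial test, adjusted p = 0.906). Among the 185 entries with at least 1000 mature reads and the same mature arm in both replicates, miR-143-3p ranked 48 by the size of this log2 ratio and miR-145a-5p ranked 185, the smallest. The median size was 0.116. The biological coefficient of variation over entries, from edgeR's common dispersion, was 15.2%. The share of miR-143-3p in replicate 2 was 0.847 of that in replicate 1. The coefficient describes the spread of single libraries about their mean, so it cannot be set directly against this ratio between libraries. For miR-145a-5p the call depended on the scaling. With edgeR's TMM in place of the totals its log2 ratio was -0.061 (exact binomial test, adjusted p = 7.4e-07), and with DESeq2's size factors -0.071 (adjusted p = 7.2e-09, same exact test). The split of the entries that differed moved too, from 58 higher in replicate 1 and 119 in replicate 2 to 98 and 78 with the size factors.

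**Figure D3:**
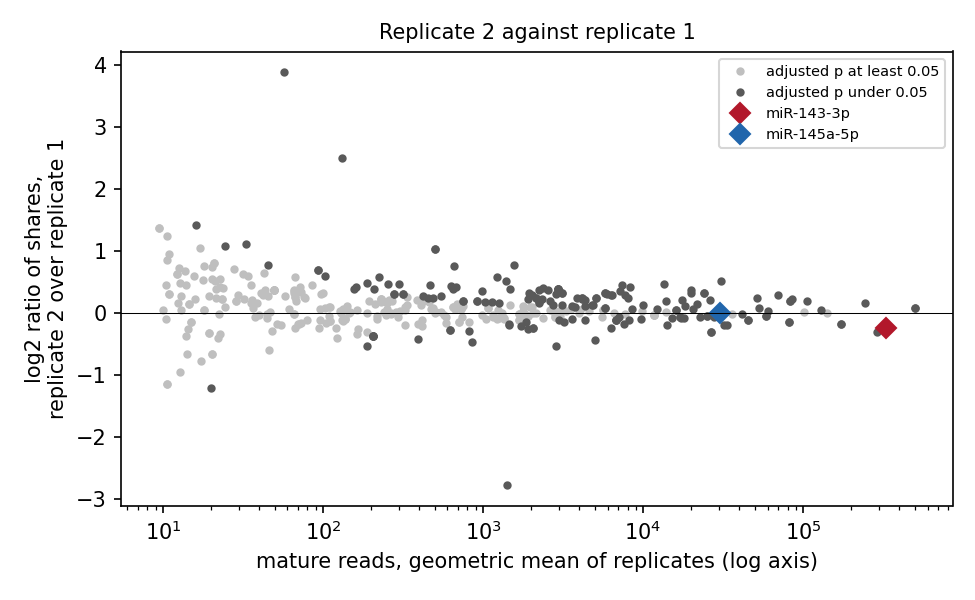
Log2 ratio of the share in replicate 2 over that in replicate 1 against mature reads (geometric mean, log axis) for the 431 entries tested. Dark points passed an adjusted p of 0.05 in the exact binomial test and light points did not. MiR-143-3p lies below 0, at -0.24, and miR-145a-5p on the line at 0.

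Of the 4 arms scaled by the totals, miR-143-3p was the only one whose share was lower in replicate 2 by more than counting error, while with TMM or the size factors miR-145a-5p was lower too. MiR-143-5p, from the same hairpin, stood at 0.0740% and 0.0763%, with overlapping intervals (0.0716% to 0.0764% and 0.0739% to 0.0788%). MiR-145a-3p stood at 0.125% and 0.137%, with intervals that did not overlap (0.122% to 0.129% and 0.134% to 0.140%). As a result the ratio of miR-143-3p to miR-145a-5p, 10.8 ± 1.3 (SD, n = 2), differed between the libraries (Fisher's exact test, two-sided, p = 4.5e-84). This test covers counting error only, and the change in the log2 ratio, 0.24, ranked 29 among 94 neighbouring pairs of clusters, whose median change was 0.17.

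Neighbouring hairpins need not give equal numbers of reads, and the other clusters show the range. Whether read counts of different sequences follow the amounts of miRNA was not tested, nor whether neighbours share a transcript. Neighbours were taken as successive entries of at least 100 mature reads in both replicates, on 1 strand, at most 10 kb apart, with different mature sequences. Over 94 such pairs the median absolute log2 ratio was 2.19, or 4.55-fold, and 24 pairs lay within a log2 ratio of 1. MiR-143-3p and miR-145a-5p, with 3.43, ranked 27. For comparison, the log2 ratio of miR-1a-1-3p over miR-133a-3p of muscle was 3.02 in replicate 1 and 3.14 in replicate 2, and the absolute value for the further muscle pair miR-206-3p and miR-133b-3p was 5.13. The largest values were those of miR-381-3p over miR-376a-5p (9.12), miR-541-5p over miR-496a-3p (8.09) and miR-370-3p over miR-1188-5p (7.81), all on chromosome 12. Pairs share entries where a cluster has more than 2 members. MiRNAs with several loci also recur with nearly the same reads, since reads that match several precursors can be counted at each. MiR-1a and miR-133a, for example, form a pair on chromosome 2 and on chromosome 18, each with an absolute log2 ratio of 3.08. The 94 pairs are thus not all independent, and these values are a description with no test.

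**Figure D4:**
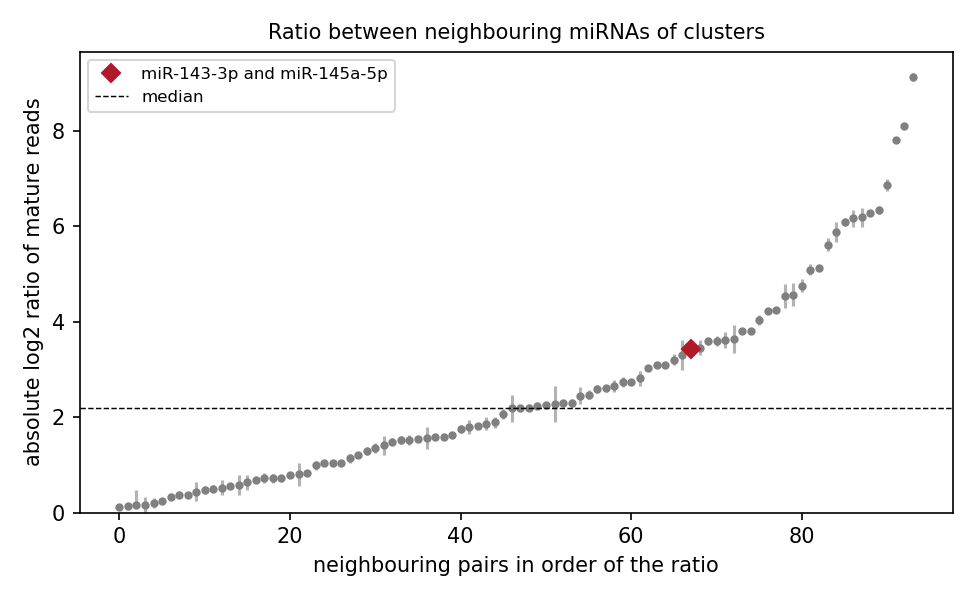
Absolute log2 ratio of mature reads for 94 pairs of neighbouring miRNAs, in increasing order. Points are means of the 2 replicates, vertical lines join the replicates and the dashed line is the median of 2.19. The pair of miR-143-3p and miR-145a-5p (diamond) lies at 3.43, in the upper part of the order.

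The members keep opposite arms, the 3p arm in miR-143 and the 5p arm in miR-145a, and opposite arms were found in 41 of the 94 neighbouring pairs. They also differed in how far 1 arm prevailed. In miR-143, star reads made up 1.001% of mature and star reads in replicate 1 (95% Wilson interval 0.97% to 1.03%) and 1.22% in replicate 2 (1.18% to 1.26%), that is 98.9 and 81.1 mature reads per star read. In miR-145a they made up 16.7% (16.3% to 17.1%) and 17.99% (17.6% to 18.4%), that is 4.99 and 4.56 mature reads per star read. The star share of miR-145a was thus above that of miR-143 in both replicates, with a gap far wider than the difference between replicates.

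Among the 185 entries with at least 1000 mature reads, the median star share was 0.688%, and 23 entries exceeded miR-145a whereas 84 exceeded miR-143. Some of these entries repeat a mature sequence at a locus without star reads. With each mature sequence counted once, an alternative added after the data were seen, the median rose to 1.53% over 142 sequences, so that miR-143, with a mean of 1.11% ± 0.15 (SD, n = 2), moved from above the median to below it. MiR-145a, with 17.3% ± 0.92 (SD, n = 2), was then exceeded by 22. The star share differed between the replicates in 7.49% of 427 entries, and in 4.92% it was higher in replicate 2 (Fisher's exact test of mature and star reads, adjusted p under 0.05). Both miR-143 (odds ratio 1.22, adjusted p = 3.1e-15, Fisher's exact test) and miR-145a (1.09, adjusted p = 9.8e-05, same exact test) were among the latter. The test of the arms covers counting error only, so these values do not measure the spread between hearts.

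**Figure D5:**
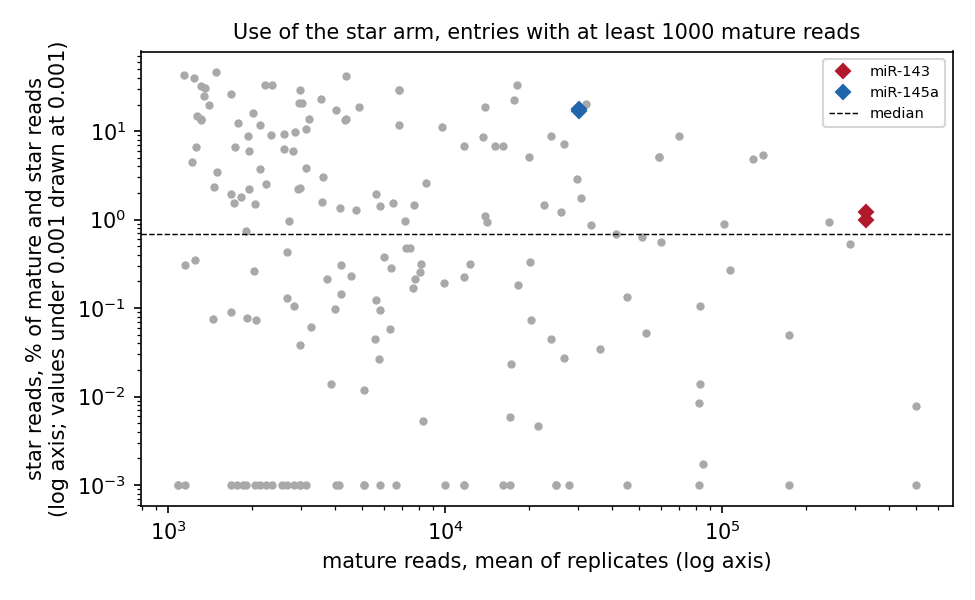
Star reads as percent of mature and star reads against mature reads (both log axes) for the 185 entries with at least 1000 mature reads and the same mature arm in both replicates. Grey points are means of the replicates, values under 0.001% are drawn at 0.001%, the dashed line is the median of 0.688%, and diamonds show both replicates of the members. MiR-145a lies at 16.7% and 17.99%, and miR-143 at 1.001% and 1.22%.

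Reads of the loop, which is normally lost after Dicer cuts, were rare in the libraries, with 783 in replicate 1 and 754 in replicate 2. MiR-145a held 120 and 124 of them, or 15.3% and 16.4% of all loop reads. It ranked 1 by loop reads in replicate 1 and 2 in replicate 2, where miR-125a stood above it with 136. Against its own precursor reads the loop was still small, at 0.322% and 0.338%. Only 58 of 568 entries in replicate 1 and 58 of 523 in replicate 2 had any loop read, so most entries had none. MiR-143 was like most entries, with 0 loop reads among 365222 reads of its precursor in replicate 1 and 0 among 301338 in replicate 2. This allows a share of up to 0.000821% and 0.000996% (3 counts), provided that reads of the loop's length were kept. The miR-143 precursor of 53 nt holds arms of 19 and 21 nt, and that of miR-145a, with 59 nt, arms of 22 and 21 nt. Both loops are thus short, that of miR-143 more so. Length filters are not given, and whether they removed loop reads was not tested.

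Each consensus sequence of the members was the same in both replicates. That of miR-143-3p is 19 nt long, shorter than the median of 22 nt over 467 precursors, and 0.642% of precursors had a shorter mature sequence. Among the 144 different mature sequences with at least 1000 reads in both replicates, 4 had 19 nt and 1 had 18. The consensus of miR-145a-5p has 22 nt, and both star sequences have 21. Of 119 such sequences that could be matched by name to RefSeq (GRCm38.p6), 54 were shorter than the RefSeq mature sequence, 49 equal in length and 16 longer. An example is miR-148a-3p, with 21 nt in the tables and 22 nt in RefSeq.

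The miR-143 precursor, with 53 nt, was shorter than most (median 60 nt, 4.07% of precursors shorter), and its GC content of 54.7% was above the median of 49.2%. MiR-145a, with 59 nt and 47.5% GC, lay near both medians. Folded with RNAfold, both hairpins had a lower minimum free energy per nt (-0.470 kcal/mol for miR-143 and -0.441 for miR-145a) than the median precursor (-0.397). The miRDeep2 score, the program's log-odds that a hairpin is a true precursor, set them apart. It was 18000 for miR-145a in both replicates and 2.7 for miR-143 in both, against a median of 11000 over entries with at least 10000 mature reads. Of the 64 such entries of replicate 1, 18 scored below 10. Most of these had few or no star reads, and among the 20 entries that also had at least 1000 star reads only miR-143 and a miR-17-5p entry scored below 10. In replicate 2, scores below 10 were found in 20 of 63 entries, and in 2 of the 19 with at least 1000 star reads.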

How the data were processed

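TruSeq small RNA libraries (n = 2) from WT hearts at E9.5 were read on HiSeq2500, single-end and 50 nt long. The authors ran miRDeep2 on the clean reads of each replicate against mm9 and deposited raw read counts (all, mature, loop and star reads) for each precursor of a known miRNA. The deposited tables also give the miRDeep2 score, rounded to 2 significant digits. Versions, adapter trimming and length filters are not given in the sources used here. All precursor sequences were identical to NCBIM37, the assembly of mm9, at the positions printed. An entry flagged as having its reads on the star of the named arm was renamed after the arm that holds the reads. An entry of replicate 1 and one of replicate 2 were joined at an overlap of 50% or more of each precursor. Shares are percent of all mature reads of a replicate, and an entry that is not listed got no value. Sums over several entries or names add those listed in each replicate. Reads that match several precursors can be counted at each.

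The exact binomial test used entries listed in both replicates with at least 20 mature reads in sum. Fisher's exact test of the arms needed 20 or more mature and star reads in sum and the same mature arm. Both were tested on simulated counts with known changes and counting error only. That simulation had no further spread between libraries, so it does not show how the tests behave with the spread of these replicates. Common dispersion and TMM came from edgeR 4.0.16, size factors from DESeq2 1.42.0 under R 4.3.3, and folding from ViennaRNA 2.7.2. Scripts ran under Python 3.11.15 with scipy 1.17.1. A count of 3 reads, the floor for detection, is 6.07e-05% of mature reads in replicate 1 and 6.24e-05% in replicate 2. Named miRNAs are the members, their neighbours in level and rank, miRNAs that share a seed with them, the marker lists and the 3 neighbouring pairs with the largest ratio. MiR-17-5p, miR-125a and the muscle pairs of neighbours were named after their values were seen. The members and lists were chosen with earlier results of these data known. Alternatives are given in the closing section.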

Additional observations from a re-analysis of the deposited data

How the results depend on the processing

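Counting each mature sequence once raised the share of miR-143-3p to 9.25%, that of miR-145a-5p to 0.856% and their sum to 10.1%, and moved their ranks to 2 and 23. It also turned the log2 ratio between replicates of miR-145a-5p to 0.0057 (exact binomial test, adjusted p = 0.765), which like the value in the report lay within counting error. With all reads of the precursor, miR-145a had 0.739% of reads and rank 27, and the ratio of miR-143 to miR-145a was 9.01. A minimum of 10 mature reads per replicate put miR-145a-5p at 0.627%. TMM and DESeq2's size factors gave miR-145a-5p log2 ratios of -0.061 and -0.071, past the threshold; over its alternatives the adjusted p ran from 7.2e-09 to 0.942 (exact binomial test). The median absolute log2 ratio of neighbours fell to 1.98 both with gaps up to 50 kb and with a minimum of 10 reads.

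Leaving out each replicate gave 6.19% to 7.32% for miR-143-3p, 0.624% to 0.625% for miR-145a-5p, 6.82% to 7.94% for their sum, 9.92 to 11.7 for their ratio, 1.001% to 1.218% and 16.70% to 17.99% for the star shares of miR-143 and miR-145a, and rank 29 for miR-145a-5p with either replicate. The test between replicates could not be run with 1 of them left out. No paired analysis was possible because there is 1 group. Of 51 recomputed values, 35 stayed within the spread or kept their side of the threshold. Part of these were fixed in advance. Leaving out a replicate only returns the value of the other, and a filter on entries leaves the log2 ratio of a member unchanged. The count is therefore no measure of how robust the results are. With 2 samples of unknown origin, differences between hearts could not be estimated.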
